A study of Arabidopsis thaliana with 33 samples.

Results

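Transposable elements (TEs) that were transcribed and lay inside or across annotated genes of *Arabidopsis thaliana* are described here. A TE was taken when the authors' deposited TE table of hda6 against wild type marked it as tested and its locus shared at least 1 bp with a locus of the deposited gene table. The rule gave 378 of the 31189 TEs listed, which is 378 of the 643 tested TEs, and the other 265 tested TEs touched no gene. The members overlapped 487 genes in 517 TE-gene pairs. The members were thus chosen by measured values, the RNA of each TE in hda6 and wild type, and all values of that TE contrast are descriptions, with no test read from them.

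RNA-seq and ChIP-seq for acetylated histone H3 (H3ac) were made from 12-day-old untreated seedlings grown on MS plates under long days (16 h light, 24 °C; 8 h dark, 22 °C). The RNA genotypes were wild type Col-0 (WT), the T-DNA line hhp1, the triple mutant of MBD1, MBD2 and MBD4 (mbd124), the quadruple mutant sant1234-null and the T-DNA line hda6, with 3 libraries each. H3ac was measured in WT, sant1234-null and hda6, again with 3 libraries each and 3 input libraries beside them. The labels give a replicate number but no allele names and do not say whether replicates were separate growths, so the authors' p-values may measure only technical spread. All libraries come from seedlings, with no tissue separated in the labels. The title of the series places HDA6, a histone deacetylase, in a complex with a domesticated Harbinger transposase. Each table holds 1 value per genotype, all tables share the WT libraries, and no value below has a replicate spread.

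TEs are mobile sequences that plants normally keep silent through DNA methylation, repressive histone marks and the removal of acetyl groups from histones, in which HDA6 takes part. Where a TE sits in an intron, the silent chromatin lies within a transcription unit, and in Arabidopsis the proteins IBM2, EDM2 and AIPP1 allow full-length transcripts to pass such introns. RPP7 and RPP4, genes for nucleotide-binding leucine-rich repeat (NLR) receptors that recognise downy mildew, carry TE sequence in introns. Other sequences annotated as TEs are short stretches within coding exons, where RNA assigned to the TE cannot be told apart from mRNA of the gene. Whether the authors counted reads by strand is not stated in the labels, so TE RNA may include sense and antisense transcripts of the gene.

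The members fell into unlike kinds of sequence, which the following stretches show. The bases are from the RefSeq genome TAIR10.1, in which all 32538 nuclear gene IDs of the deposited tables were found and 30302 of these genes shared a start or an end with the deposited locus (build TAIR10). The first 2 lie in coding exons of LRX3, a leucine-rich repeat extensin of the cell wall, at chr4:7760188-7760307, and of PATL1, a patellin that binds phospholipids and takes part in cell plate formation, at chr1:27148994-27149113. Both are on the plus strand, as are the genes, and both members fell with or without their gene in several mutants. The third lies in an intron of RPP4, at chr4:9494076-9494195, shown on the minus strand in the direction of the gene. Capitals mark low-complexity bases found by dustmasker, which cover 65.0%, 29.2% and 23.3% of the 120 bases shown.
AT4TE34010, LRX3: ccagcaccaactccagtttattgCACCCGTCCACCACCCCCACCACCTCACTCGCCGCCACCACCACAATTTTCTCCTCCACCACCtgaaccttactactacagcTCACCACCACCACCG
AT1TE88825, PATL1: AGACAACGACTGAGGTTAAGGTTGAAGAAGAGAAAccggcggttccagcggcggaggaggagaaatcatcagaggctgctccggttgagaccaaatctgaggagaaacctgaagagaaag
AT4TE42880, RPP4: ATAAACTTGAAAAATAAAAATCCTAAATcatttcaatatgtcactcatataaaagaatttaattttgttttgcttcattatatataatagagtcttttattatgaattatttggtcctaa

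The LRX3 stretch is 58.3% G and C and the PATL1 stretch 51.7%, whereas the RPP4 intron stretch is 19.2%. AT1TE71775, a 5195 bp member in an intron of AT1G58602 (RPP7), opens and ends with a direct repeat of 429 aligned positions at 98.4% identity, the arrangement known from long terminal repeat retrotransposons. The repeats differ by 1 substitution and an insertion of 6 bases, which is in capitals in the second line. The first line is chr1:21748274-21748367 and the second chr1:21753040-21753139, both on the plus strand, and neither holds an exon base.
First repeat of AT1TE71775: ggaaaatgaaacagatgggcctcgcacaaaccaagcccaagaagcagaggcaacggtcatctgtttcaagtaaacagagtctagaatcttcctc
Second repeat of AT1TE71775: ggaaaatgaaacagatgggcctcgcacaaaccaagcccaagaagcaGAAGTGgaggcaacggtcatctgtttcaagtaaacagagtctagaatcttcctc

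The last 3 stretches lie under H3ac peaks that rose at members in hda6 or in sant1234-null, on the plus strand. They are the part of a peak before the start of QQS at chr3:12348930-12349046, and the middle 150 bases of peaks at chr5:6407498-6407647 and chr4:6591612-6591761. Dustmasker marked no base of these stretches, so none is in capitals.
AT3TE51150, QQS: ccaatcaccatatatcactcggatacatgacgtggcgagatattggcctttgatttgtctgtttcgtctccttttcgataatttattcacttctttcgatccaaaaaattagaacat
AT5TE23185, AT5G19100: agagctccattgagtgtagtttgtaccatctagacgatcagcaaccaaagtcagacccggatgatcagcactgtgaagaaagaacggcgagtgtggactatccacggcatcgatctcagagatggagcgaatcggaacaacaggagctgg
AT4TE28200, AT4G10695: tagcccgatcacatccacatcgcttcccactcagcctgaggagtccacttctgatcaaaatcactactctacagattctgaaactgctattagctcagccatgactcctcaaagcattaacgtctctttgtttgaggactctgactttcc

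Most members were short and lay wholly within a gene. Of the 378, 286 were inside a gene, 66 crossed a gene end and 26 contained a whole gene. By the RefSeq exons, 197 members were at least 50% coding exon and 69 more were at least 50% exon of any kind, called untranslated or non-coding exon here. A further 51 were at least 50% intron, and 61 were of mixed place or mostly outside the gene. Only 32 members held no exon base at all, and 147 were coding exon throughout. The gene with the largest overlap was protein-coding for 335 members and a long non-coding RNA for 32. Of the members, 94 overlapped more than 1 gene, and 26 genes held more than 1 member, so members are not independent of each other.

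The median length was 437.5 bp, against 1332 bp for the tested TEs outside genes. Coding exon members had a median of 330 bp, intron members 726 bp, and those of mixed place 2990 bp. At least 20% of the sequence was low-complexity in 153 members (40.5%), and in 14 of the 265 tested TEs outside genes (5.28%). Among coding exon members the count was 112 of 197 (56.9%). Median G and C content was 44.7% in coding exon members and 24.3% in intron members. Of the 75 members of at least 1000 bp, 13 had a direct repeat shared by their first and last parts, 1 an inverted repeat and 61 neither. The repeats were not all at the very ends, as that of AT2TE01630 began at base 759 and that of AT2TE10740 at base 88.

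The edges of the choice were narrow in places. The smallest overlaps that made a TE a member were 4 bp, for AT3TE20780 and AT5TE65370, while the nearest tested TE left out, AT2TE24520, lay 5 bp from a gene. The member with the lowest RNA, AT3TE73025, reached 160.5 FPKM in the higher genotype of the authors' deposited hda6 table. FPKM is the number of fragments scaled by feature length and library size, and in these TE tables the scale also differed between comparisons. An overlap with a gene was also found for 5557 TEs that were not tested there, of which 4962 were listed at 0 in both genotypes. Untested TEs were not all low, since AT3TE95080 was listed at 114163 FPKM.

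RNA levels of members followed the place in the gene. In WT of the authors' deposited hhp1 table, the median was 4477 FPKM for coding exon members, 822.7 for untranslated or non-coding exon, 565.2 for intron and 441.7 for mixed place. The lowest values were 0, listed for 18 members, and the highest was 550176 for AT1TE88825 in PATL1. In that table the WT TE value was a median of 423 times that of the gene in coding exons and 30.2 times in introns, so the authors' TE and gene scales cannot be compared and only changes are set side by side below. WT levels of coding exon members and their genes correlated across 180 members (Pearson r of log10 FPKM 0.68), and those of intron members less (0.19 over 46). These are correlations across members of the same libraries, given as a description. The WT value of a member in the deposited hda6 table was a median of 0.693 of that in the hhp1 table, against 0.986 for mbd124 and 0.978 for sant1234-null, so levels are compared only within a table.

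The authors called few members in each mutant, at an adjusted p (q) under 0.05 of the deposited Cuffdiff test. In hhp1, 7 of 328 tested members were higher and 18 lower than WT, where 7.28% of all tested TEs were called, 2.65% higher and 4.64% lower. In mbd124, 7 of 324 were higher and 15 lower, where 7.57% of all tested TEs were called, 3.12% higher and 4.45% lower. In sant1234-null, 13 of 326 were higher and 18 lower, where 9.96% of all tested TEs were called, 5.72% higher and 4.24% lower. In sant1234-null the balance of direction turned at q under 0.01, with 10 higher and 6 lower. The called shares of members, 7.62%, 6.79% and 9.51%, were thus near those of all TEs. The median log2 changes of members were -0.15, -0.05 and -0.17, beside -0.03, 0.07 and -0.01 for all tested TEs. In hda6, the contrast that chose the members, 33 were higher and 21 lower of 378, where 30.5% of all tested TEs were called, 26.1% higher and 4.35% lower, and 135 of the 265 TEs outside genes were higher and 7 lower. The excess of higher members in hda6 was not there among members wholly inside a gene (13 higher, 14 lower), and without members listed at 0 the counts were 17 and 15.

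Outside hda6, calls of coding exon members were mostly lower, while calls in the other places went either way. Among coding exon members, 17 of 188 tested were lower and 0 higher in hhp1, 11 lower and 2 higher of 186 in mbd124, and 12 lower and 2 higher of 187 in sant1234-null, by the authors' deposited q. In hhp1, 42 intron members were tested and 0 were called in either direction. In mbd124 2 of 40 intron members were higher and 2 lower, in sant1234-null 1 and 3 of 38, and in hda6 5 and 4 of 51. Members in untranslated or non-coding exon were higher in 3 of 53, 1 of 55 and 4 of 55 cases in hhp1, mbd124 and sant1234-null. They were lower in 1, 0 and 1, and in hda6 6 were higher and 5 lower of 69. Members of mixed place were higher in 4 of 45, 2 of 43 and 6 of 46 cases in hhp1, mbd124 and sant1234-null, and lower in 0, 2 and 2. In hda6 the mixed members split into 15 higher and 5 lower of 61, and the coding exon members into 7 and 7 of 197. In WT of the hda6 comparison, 7 mixed, 5 coding exon, 4 untranslated or non-coding exon and 2 intron members were listed at 0. Such members could be tested only through their RNA in hda6, so part of the higher counts there follows from the choice of members. The difference between places was not tested.

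**Figure D1:**
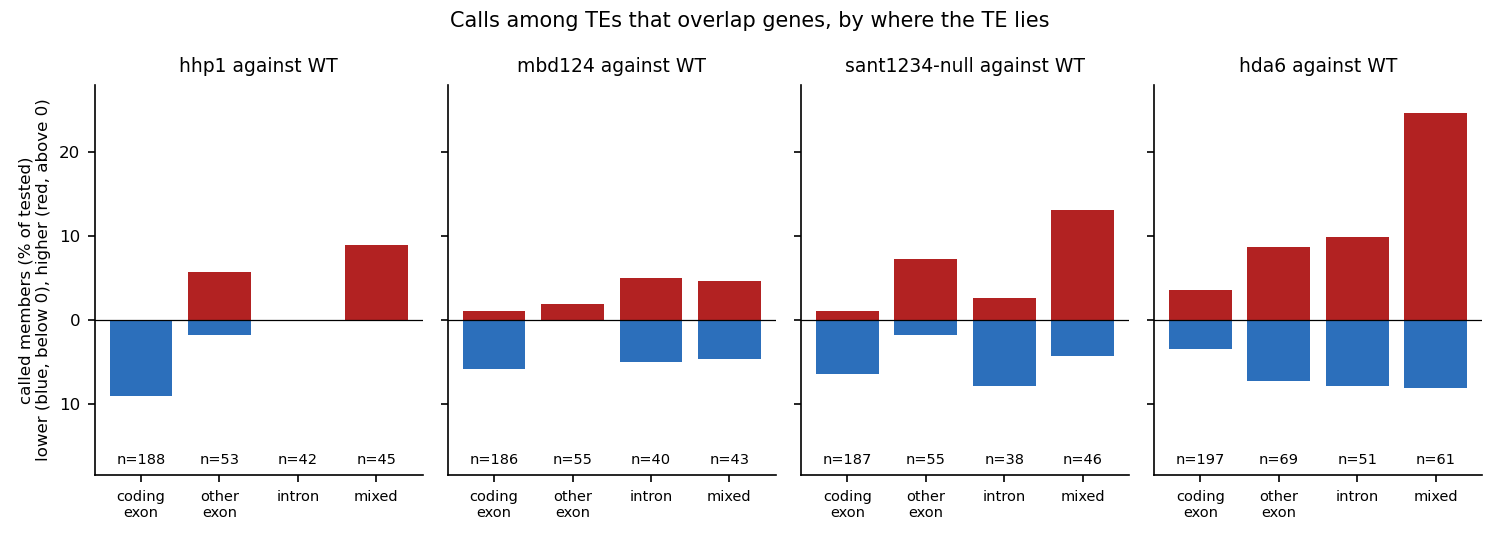
Share of tested members called higher (red, above 0) or lower (blue, below 0) than WT, in percent of the members tested in each class (n under each bar), for 4 mutants and 4 places in the gene; "other exon" is untranslated or non-coding exon. Coding exon members called in hhp1 were all lower (17 of 188), while in hda6 15 of 61 mixed members were called higher and 5 lower. The hda6 contrast chose the members, and members listed at 0 in WT, 7 of them mixed, could enter only through their RNA in hda6.

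In hhp1, mbd124 and sant1234-null, members rich in low-complexity sequence were called lower more often by count. In hhp1, 12 of the 141 tested members with at least 20% low-complexity bases were lower and 0 higher in the authors' deposited table, against 6 lower and 7 higher of the 187 others. In mbd124 the counts were 10 lower and 1 higher of 141, against 5 lower and 6 higher of 183. In sant1234-null they were 13 lower and 1 higher of 140, against 5 and 12 of 186. In hda6 they were 9 lower and 3 higher of 153, against 12 and 30 of 225. Within coding exons of hhp1, 12 of 110 low-complexity members and 5 of 78 others were lower, and 112 of the 153 low-complexity members are coding exon members, so the classes overlap. The difference was not tested, and the part of repeated short sequence in these values was not tested.

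Some of the coding exon members that fell lie in genes of cell wall proteins, named singly here and not counted as a group. AT4TE34010 in LRX3 fell from 13933 to 5837 FPKM in hhp1 (q = 0.00324), from 13687 to 2084 in mbd124 (q = 0.00150) and from 13716 to 4547 in sant1234-null (q = 0.00103), in the authors' deposited TE tables. In hda6 it was listed at 9735 and 6548 FPKM, which was not called. The LRX3 gene moved alike, from 182.9 to 79.1 FPKM in hhp1, from 182.3 to 23.4 in mbd124 and from 183.4 to 57.9 in sant1234-null, in the deposited gene tables, and was called lower in each. The TE log2 changes were -1.26 ± 0.31, -2.72 ± 0.67 and -1.59 ± 0.39. The errors here and below are standard errors taken from the deposited change and p. They are upper bounds where the p is at 5.0e-05, the smallest in the tables, as for all the errors of AT4TE34010.

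LRX1, a root hair wall protein, and AT4G18670 (LRX5) belong to the same family, and EXT6 is an extensin. AT1TE13240 in LRX1 fell from 5076 to 2410 FPKM in hhp1 (q = 0.0133) and from 4978 to 2768 in mbd124 (q = 0.0476) in the authors' deposited tables, and was listed at 4981 and 3253 in sant1234-null (q = 0.164). In hda6 its value was higher than in WT, 3526 and 5510 FPKM, without a call. AT4TE46815 in AT4G18670 fell from 5276 to 1285 FPKM in hhp1 only by the deposited q (0.0290), while the gene was called lower in hhp1, mbd124 and sant1234-null. Whether hhp1 differs there from the other mutants was not tested. A second member in LRX3, AT4TE34015, and a second in LRX1, AT1TE13245, were called in none of the 4 tables. AT2TE45520 in EXT6 fell from 8550 to 3369 FPKM in hhp1 (q = 0.00324) and from 8415 to 4168 in sant1234-null (q = 0.0142).

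In PATL1 the annotated TE segment had a larger log2 change than the gene. AT1TE88825 went from 550176 to 273800 FPKM in hhp1, from 541214 to 231427 in mbd124 and from 536623 to 224955 in sant1234-null, and was called lower in each deposited TE table. PATL1 itself went from 453.7 to 387.2 FPKM in hhp1 (q = 0.589), from 452.8 to 265.8 in mbd124 (q = 0.000861) and from 454.6 to 317.4 in sant1234-null (q = 0.0588) in the deposited gene tables. In hda6 neither was called. The log2 change of the TE was -1.01 ± 0.25 in hhp1, with the error an upper bound, where that of the gene was -0.23. The member was named for its large TE fall, and the difference between TE and gene was not tested. Over all pairs with coding exon members, the median log2 change of the TE minus that of the gene was -0.13 in hhp1, 0.02 in mbd124 and -0.17 in sant1234-null.

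The TE also had the larger change at AT5G46730, a glycine-rich protein gene, whose member AT5TE68230 was lower in all 4 mutants. Its values fell from 1346 to 378.6 FPKM in hhp1 (q = 0.00324), from 1343 to 355.5 in mbd124 (q = 0.0160), from 1321 to 529.5 in sant1234-null (q = 0.0137) and from 942.1 to 306.6 in hda6, in the authors' deposited TE tables. The gene was at 9.68 and 8.05 FPKM in hhp1 (q = 0.507) and at 9.71 and 6.84 in sant1234-null (q = 0.0594), and it was called lower in mbd124 (9.67 to 6.19) and hda6 (9.49 to 6.39). AT5TE92530 in DIT2.1, a plastid dicarboxylate transporter of photorespiration, fell from 21021 to 7866 FPKM in hhp1, from 20512 to 8526 in mbd124 and from 20654 to 8174 in sant1234-null, with its gene called lower in the same 3 tables. The gene's change was smaller, for example from 51.6 to 35.9 FPKM in hhp1. AT5TE68230 and AT5TE92530 were named for large TE falls, and their differences from the genes were not tested.

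AT4TE47000 in RLP51, a receptor-like protein gene, was the other member called lower in all 4 mutants. In the authors' deposited TE tables it fell from 5009 to 2505 FPKM in hhp1, from 4918 to 1948 in mbd124, from 4921 to 2206 in sant1234-null and from 3487 to 1937 in hda6. The gene fell in all 4 tables too, for example from 19.6 to 6.74 FPKM in mbd124 and from 19.3 to 10.7 in hda6. TE and gene log2 changes were close at this locus, -1.34 ± 0.33 (error an upper bound) and -1.54 in mbd124, and -0.85 and -0.85 in hda6. As the libraries are bulk seedlings, fewer cells of a type and less RNA per cell cannot be told apart for any of these falls.

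A few leaf and root genes were followed as a rough view of tissue makeup. Of 4 leaf markers, at 783 to 6246 FPKM in WT of the authors' deposited hhp1 gene table, 2 were called lower in hhp1 and 1 each in mbd124 and sant1234-null. Their summed level was 10150 FPKM in WT and 7564 in hhp1, 7912 in mbd124, 8114 in sant1234-null and 8214 in hda6, each in its own table, with WT sums of 9950 to 10172. Of 4 root markers, whose WT values ran from 2.39 to 25.7 FPKM, LRX1 was called lower in hhp1 and mbd124. LRX1 holds 2 members itself, so it is not a measure apart from them. IRT1 was called higher in sant1234-null and hda6, and SHV2 and EXPA7 were called in no table. Of 4 floral organ markers, which summed to 1.03 FPKM in WT, PI was tested and called higher in hhp1 (0.566 to 1.66 FPKM) and sant1234-null (0.567 to 3.14), while AP1, AP3 and AG were not tested. Of 4 seed maturation markers, which summed to 0.551 FPKM in WT, CRA1 was called higher in mbd124 (0.409 to 2.15) and hda6 (0.402 to 0.988), and LEC1 was listed at 0 throughout. The part of tissue makeup in the changes of members was not tested.

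Outside hda6, 47 of the 339 members tested in at least 1 of the other 3 tables were called in any (13.9%), 24 of them in 1 table, 15 in 2 and 8 in 3. Of all 521 TEs tested in at least 1 of these tables, 14.2% were called, so the share of members was near that of all TEs. With the hda6 table, whose values chose the members, added as a description, 83 of the 378 members were called in any table and 4 in all. Of these 83, 39 were higher wherever called, 41 were lower wherever called and 3 were called in opposite directions in different mutants. The tables share the WT libraries, so calls that recur are not independent. Besides the 2 members above that fell, 2 rose in all 4 mutants, AT2TE26610 and AT5TE60280, both at genes for proteins with leucine-rich repeats.

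AT2TE26610, a 2068 bp member across the end of AT2G15042, rose from 1103 to 1831 FPKM in hhp1 (q = 0.0383), from 1091 to 3879 in mbd124 (q = 0.00150), from 1074 to 2995 in sant1234-null (q = 0.00103) and from 760.6 to 1785 in hda6, in the authors' deposited TE tables. Only 3.87% of it is exon of that gene. The gene was called higher in mbd124 (7.09 to 16.7 FPKM), sant1234-null (7.13 to 11.8) and hda6 (6.97 to 13.4), and was not called in hhp1 (7.11 and 7.27, q = 0.977).

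AT5TE60280 lies in untranslated exon of AT5G41750, a gene for a TIR-NBS-LRR disease resistance protein, and showed the largest rise of any member in sant1234-null. Its RNA rose from 478.8 to 1173 FPKM in hhp1 (q = 0.0411), from 473.2 to 1738 in mbd124 (q = 0.00150), from 467.1 to 13582 in sant1234-null (q = 0.00103) and from 330.9 to 6387 in hda6, in the authors' deposited TE tables. The gene rose from 2.70 to 8.76 FPKM, from 2.70 to 8.78, from 2.71 to 50.7 and from 2.65 to 51.3 in the same order. The TE log2 change was 4.86 ± 1.199 in sant1234-null, with the error an upper bound, and that of the gene 4.23. In hhp1 the TE changed by 1.29 ± 0.43 and the gene by 1.70. Its neighbour AT5G41740, which holds no member, was called higher in hhp1, sant1234-null and hda6 but not in mbd124 (6.98 and 6.84 FPKM, q = 0.966).

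Some members were called in 3 of the 4 tables, and AT5TE80015 and AT5TE58950 among them rose. AT5TE80015, which crosses an end of the ankyrin repeat gene AT5G54720, rose from 423.5 to 1920 FPKM in hhp1, from 414.4 to 1465 in sant1234-null and from 292.4 to 1544 in hda6, and was listed at 413.3 and 777.0 in mbd124 (q = 0.308), in the authors' deposited TE tables. Its gene was called higher in all 4 gene tables. AT5TE58950, 7872 bp long, contains the whole amino acid transporter gene LHT1 and was called higher in hhp1, mbd124 and hda6 together with it. In sant1234-null both were listed higher without a call (TE 425.0 and 675.2 FPKM, q = 0.0694, gene q = 0.0813). AT2TE43295 in LYK4, a LysM receptor kinase of chitin perception, was called in sant1234-null only, at 4564 and 14149 FPKM, and its gene was called higher in all 4 tables.

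Others called in 3 tables fell. AT4TE67650 in AT4G29020, a glycine-rich protein gene, fell from 41133 to 24642 FPKM in hhp1, from 40681 to 21523 in mbd124 and from 40344 to 19160 in sant1234-null, in the authors' deposited TE tables, with its gene called lower in the same 3. AT5TE35015 in SFP1, a gene of the major facilitator superfamily, was at 5583 and 5396 FPKM in hhp1 (q = 0.951), fell from 5527 to 2510 in mbd124 (q = 0.0196) and from 5452 to 2929 in sant1234-null (q = 0.0434), and stood at 3868 and 1104 in hda6. AT2TE86100 overlaps BRM, a chromatin remodelling ATPase gene, and UBC6 by 357 bp each. The TE went from 550.1, 530.5 and 374.0 FPKM to a listed 0 in hhp1, sant1234-null and hda6. BRM was called in none of the 4 gene tables, and UBC6 is not reported here.

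**Figure D2:**
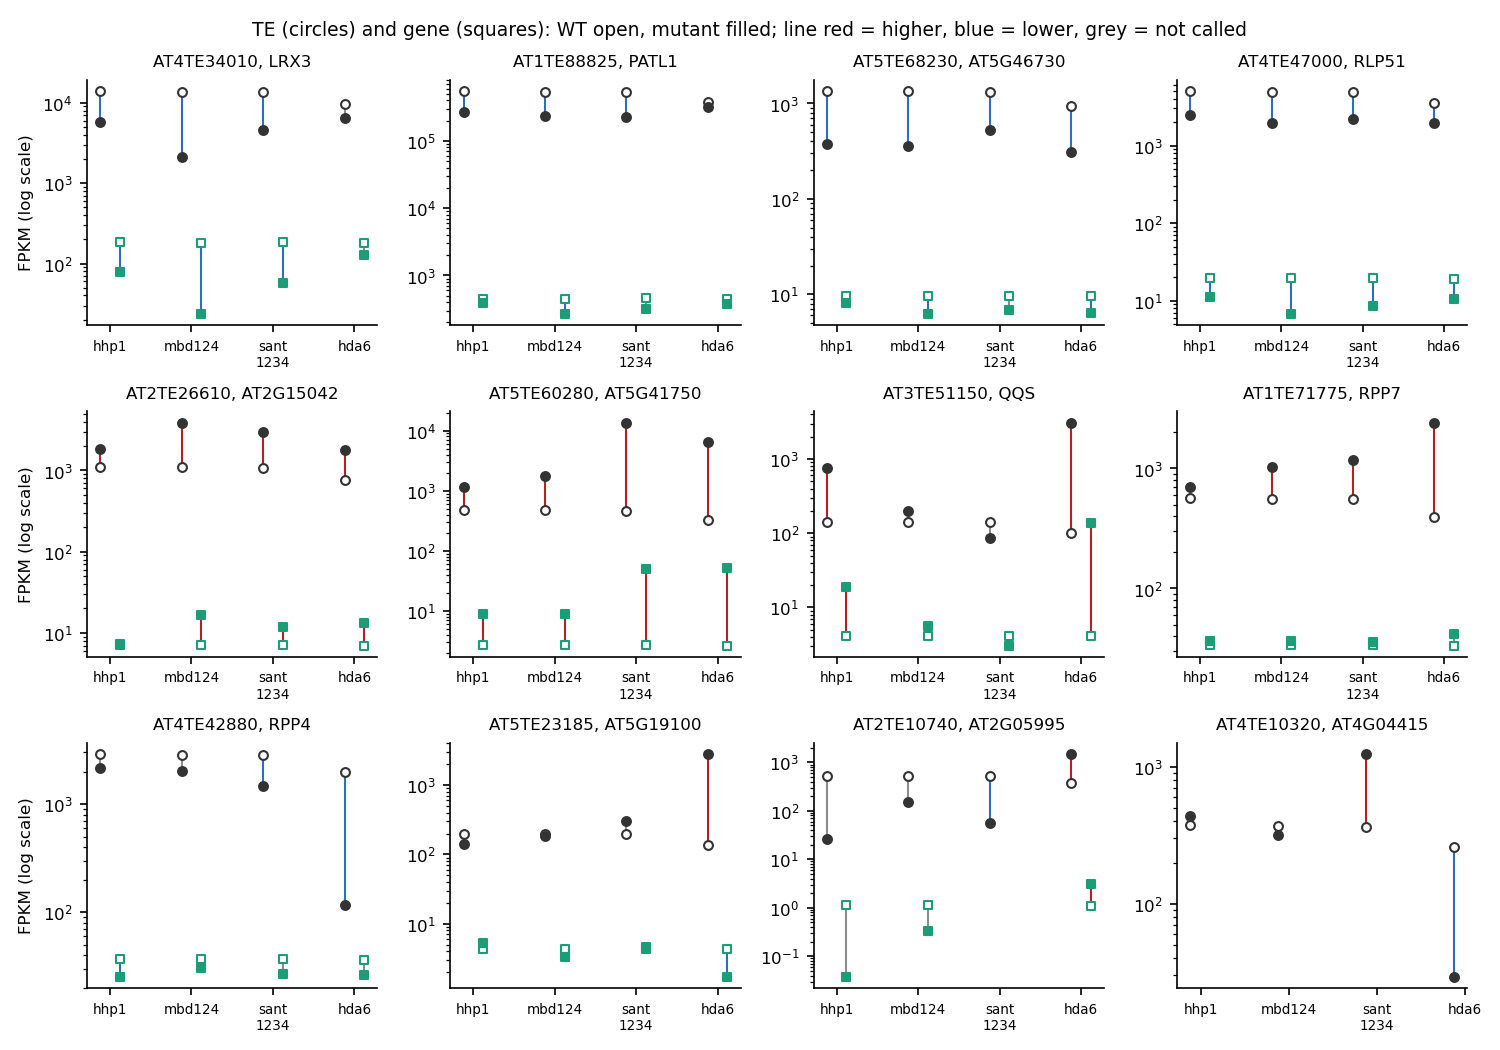
FPKM on a log scale of 12 members (circles) and their genes (squares) in WT (open) and mutant (filled) of each of the authors' 4 tables, joined by a red line where called higher, blue where lower and grey where not called; a pair with a value of 0 is not drawn. AT5TE60280 rose in all 4 tables and AT5TE68230 and AT4TE47000 fell in all 4, while AT1TE71775 rose in 3 with RPP7 near 34 FPKM in every table's WT.

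RPP7 and RPP4 were followed as genes known for intronic TEs, and other NLR genes with members were not counted. RPP7 (AT1G58602) held 5 members, all without exon bases and in the introns before its coding exons. AT1TE71775, with the terminal repeats shown above, was at 565.2 FPKM in WT and 700.7 in hhp1 (q = 0.516), and rose from 556.9 to 1029 in mbd124 (q = 0.00827), from 553.0 to 1182 in sant1234-null (q = 0.00103) and from 391.9 to 2410 in hda6, in the authors' deposited TE tables. The log2 changes were 0.89 ± 0.25 in mbd124, 1.10 ± 0.27 (error an upper bound) in sant1234-null and 2.62 in hda6. Over the same tables the RPP7 gene stayed uncalled, at 34.0 and 36.2 FPKM in hhp1, 33.9 and 36.5 in mbd124, 34.1 and 36.1 in sant1234-null and 33.4 and 42.1 in hda6 (q = 0.257).

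The RPP7 members upstream of AT1TE71775 also carried RNA. AT1TE71770 was at 2270 and 14473 FPKM in the authors' deposited hda6 table, and at 3203 and 5502 in mbd124 (q = 0.128) and 3215 and 5352 in sant1234-null (q = 0.150). AT1TE71765 was listed at 0 in WT and at 4571 FPKM in hda6 without a call. The downstream members AT1TE71790 and AT1TE71810 were called in none of the 4 tables, and AT1TE71790 was at 1249 and 1101 FPKM in WT and hda6 of the hda6 table. The higher values in hda6 thus stood in members of the first intron, of which AT1TE71770 and AT1TE71775 were called.

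At RPP4 each call was lower. AT4TE42880, in the first intron, was at 1996 FPKM in WT and 116.7 in hda6, and fell from 2828 to 1464 in sant1234-null (q = 0.0179), in the authors' deposited TE tables. It was listed at 2894 and 2139 in hhp1 (q = 0.414) and at 2830 and 2030 in mbd124 (q = 0.340). The adjoining AT4TE42875 fell from 2441 to 799.0 FPKM in mbd124 (q = 0.0463) and from 2460 to 819.4 in sant1234-null (q = 0.0206), and stood at 1737 and 18.7 in hda6 without a call. AT4TE42860, which crosses the 3′ end of the gene and reaches 3 more genes, was at 3846 and 407.6 FPKM in hda6 and fell from 5418 to 3324 in mbd124 (q = 0.0427).

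The RPP4 gene itself was called lower only in hhp1 (36.7 to 25.1 FPKM, q = 0.00349) in the authors' deposited gene tables. In hda6 it was at 35.9 and 26.1 FPKM (q = 0.0707), in sant1234-null at 36.7 and 27.0 (q = 0.0568) and in mbd124 at 36.5 and 30.8 (q = 0.424). In hda6 the TE log2 change of AT4TE42880 was -4.10, beside -0.46 for the gene. The called intron members of RPP7 and of RPP4 thus differed in direction in hda6, while neither gene was called there.

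**Figure D3:**
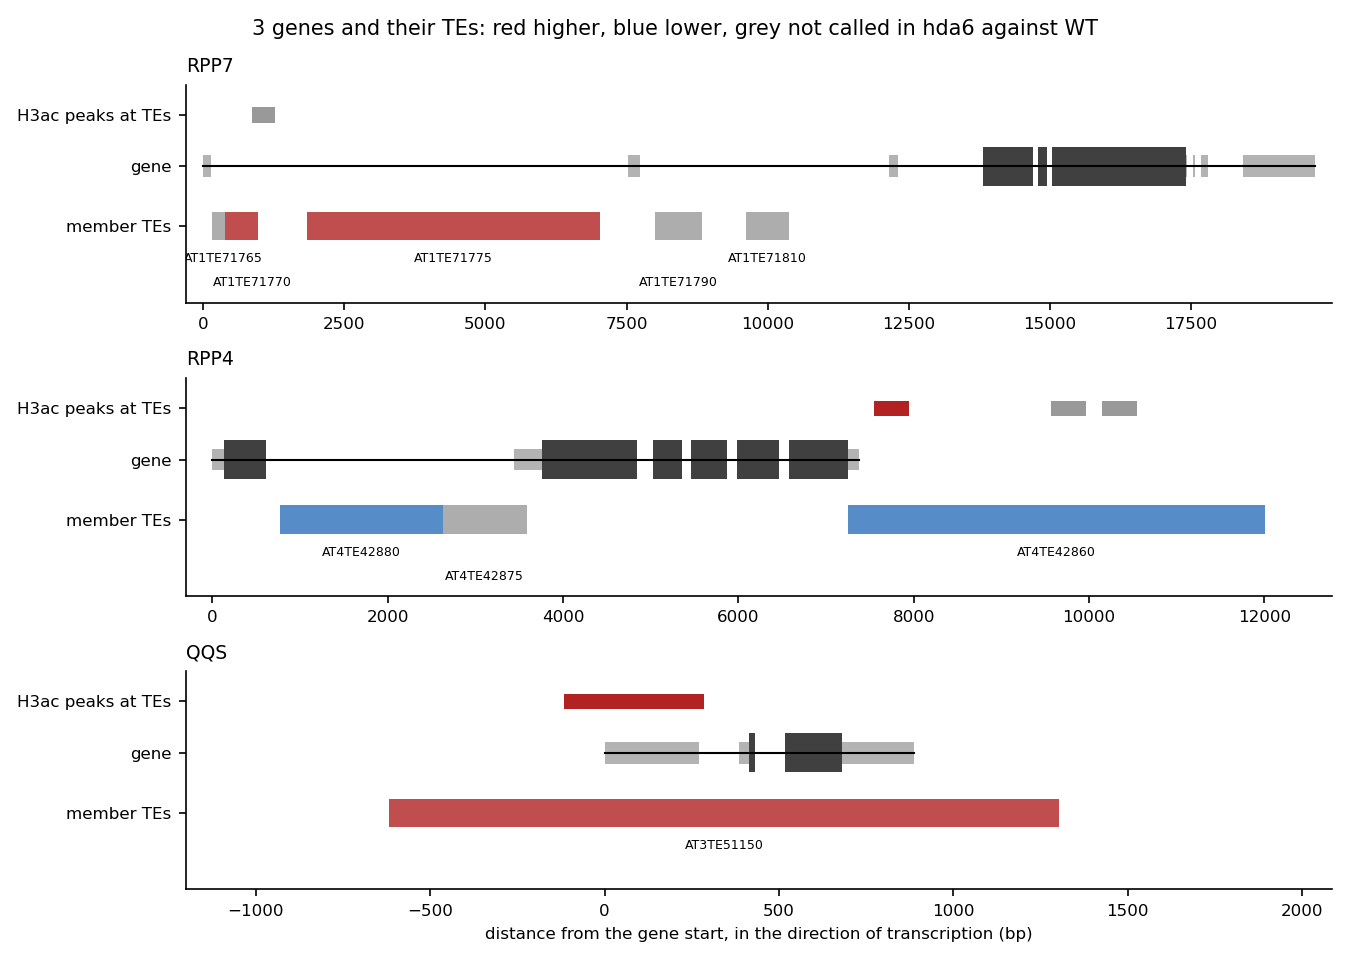
Maps of RPP7, RPP4 and QQS drawn to scale as distance from the gene start in the direction of transcription (bp), with coding exons (dark), other exons (light), member TEs and the H3ac peaks that overlap them, coloured by the call in hda6 (red higher, blue lower, grey not called). AT1TE71770 and AT1TE71775 in RPP7 were called higher and AT4TE42880 and AT4TE42860 at RPP4 lower, the other members of both were not called, and QQS lies wholly within AT3TE51150, which was higher.

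QQS, which modulates leaf starch and is known for natural variation in its DNA methylation, lies wholly inside AT3TE51150, a member of 1922 bp. The TE rose from 143.4 to 748.6 FPKM in hhp1 (q = 0.00453) and stood at 99.4 and 3088 in hda6, and it was not tested in mbd124 (142.4 and 199.3) or sant1234-null (140.0 and 85.4), in the authors' deposited TE tables. QQS rose from 4.16 to 19.1 FPKM in hhp1 (q = 0.00192) and from 4.08 to 138.9 in hda6 (q = 0.000899), and was not called in mbd124 (q = 0.502) or sant1234-null (q = 0.464) in the deposited gene tables. The H3ac peak at the QQS start rose from a log2 concentration of 0.73 in WT to 6.16 in hda6, a deposited log2 fold of 5.29 at an FDR of 2.91e-07.

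Further genes known for TE or repeat sequence in or beside them were followed as a list of 10, which holds RPP7, RPP4, QQS and AT5G41750. Of its 8 tested genes, 3 were called higher and 1 lower in hhp1, 1 higher and 0 lower in mbd124, and 2 and 1 in sant1234-null, and of 9 in hda6 3 and 1, in the authors' deposited gene tables. Of all tested genes 6.14%, 11.3%, 15.3% and 12.0% were called in these tables. IBM1, a histone demethylase gene with an intronic heterochromatic repeat, was at 6.00 and 4.97 FPKM in hda6 (q = 0.366) and uncalled in all 4. PPD7 (AT3G05410) was lower in sant1234-null (13.97 to 9.82 FPKM, q = 0.0287) and hda6 (13.7 to 8.81, q = 0.0177). SDC was listed at 0 in WT and at 7.95 FPKM in hda6 without a call (q = 0.405), and FWA was not tested.

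The genes that read intragenic heterochromatin, IBM2, EDM2 and AIPP1, were called in none of the 4 deposited gene tables. Of 21 genes for TE silencing, which include DNA methyltransferases, RNA polymerase IV and V subunits and argonautes, 0 were called in hhp1 and mbd124. Of all tested genes, 6.14% and 11.3% were called in these 2 mutants. In sant1234-null, where 9.33% of all tested genes were higher, 4 were called higher, ROS1 (12.3 to 16.7 FPKM, q = 0.0448), NRPE1 (2.65 to 3.65, q = 0.0272), AGO6 (0.662 to 1.98, q = 0.000723) and ATXR5 (5.14 to 7.55, q = 0.0163). In hda6 AGO6 was called higher (0.648 to 1.09 FPKM, q = 0.0498) and ROS1, a DNA demethylase, lower (12.0 to 4.69, q = 0.000899). The share of all tested genes called in hda6 was 12.0%.

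Counting both directions together, the genes that overlap members were called at a share above that of all genes in each deposited gene table. In hhp1, 17 of 410 tested host genes were higher and 25 lower, where 6.14% of all tested genes were called, 2.88% higher and 3.26% lower. In mbd124 the counts were 22 and 42 of 411, where 11.3% of all genes were called, 4.85% higher and 6.42% lower. In sant1234-null they were 35 and 36 of 411, where 15.3% were called, 9.33% higher and 5.93% lower. In hda6 they were 47 and 22 of 423, where 12.0% were called, 7.25% higher and 4.79% lower. The host shares were 10.2%, 15.6%, 17.3% and 16.3%, and the difference from all genes was not tested. Hosts came in through TEs chosen by their RNA in hda6 and WT, so the hda6 counts are not independent of that choice.

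Calls of TEs and genes were counted together over TE-gene pairs, in which a TE that overlaps several genes counts several times. Of the pairs with both tested, 13 of 396 in hhp1, 18 of 389 in mbd124, 17 of 392 in sant1234-null and 29 of 450 in hda6 were called in the same direction in both of the authors' deposited tables. Opposite calls numbered 0, 1, 0 and 1 in the same order. With so few calls, how many opposite pairs would arise if TE and gene were unrelated was not computed. The TE alone was called in 14, 6, 16 and 32 pairs. The gene alone was called higher in 9, 16, 24 and 30 pairs and lower in 20, 28, 27 and 13. The log2 changes of TE and gene correlated across pairs with Pearson r of 0.37, 0.43, 0.39 and 0.39, over 386, 376, 380 and 415 pairs with values above 0. With 0.1 added to each FPKM, r was 0.12, 0.087 and 0.19 in hhp1, mbd124 and sant1234-null. Pairs share libraries and, in exons, sequence, so these correlations are descriptions.

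The opposite pair in mbd124 was in TLL1, a gene for a triacylglycerol lipase-like protein. Its intron member AT1TE56695 was listed at 0 in WT and at 498.4 FPKM in mbd124 (q = 0.00150), and at 247.8, 298.8 and 345.8 in hhp1, sant1234-null and hda6, in the authors' deposited TE tables. TLL1 fell from 134.9 to 77.0 FPKM in mbd124 (q = 0.000861), and was at 135.5 and 103.9 in sant1234-null (q = 0.0933) and 132.6 and 96.4 in hda6 (q = 0.0605). The opposite pair in hda6 was AT5TE23185 and the aspartyl protease gene AT5G19100. The TE was at 138.3 FPKM in WT and 2791 in hda6, and the gene fell from 4.27 to 1.69 (q = 0.000899). AT5TE23185 is 5006 bp long, has direct repeats of 216 bp at 97.2% identity at its ends, and shares 1.04% of its bases with exons of the gene.

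**Figure D4:**
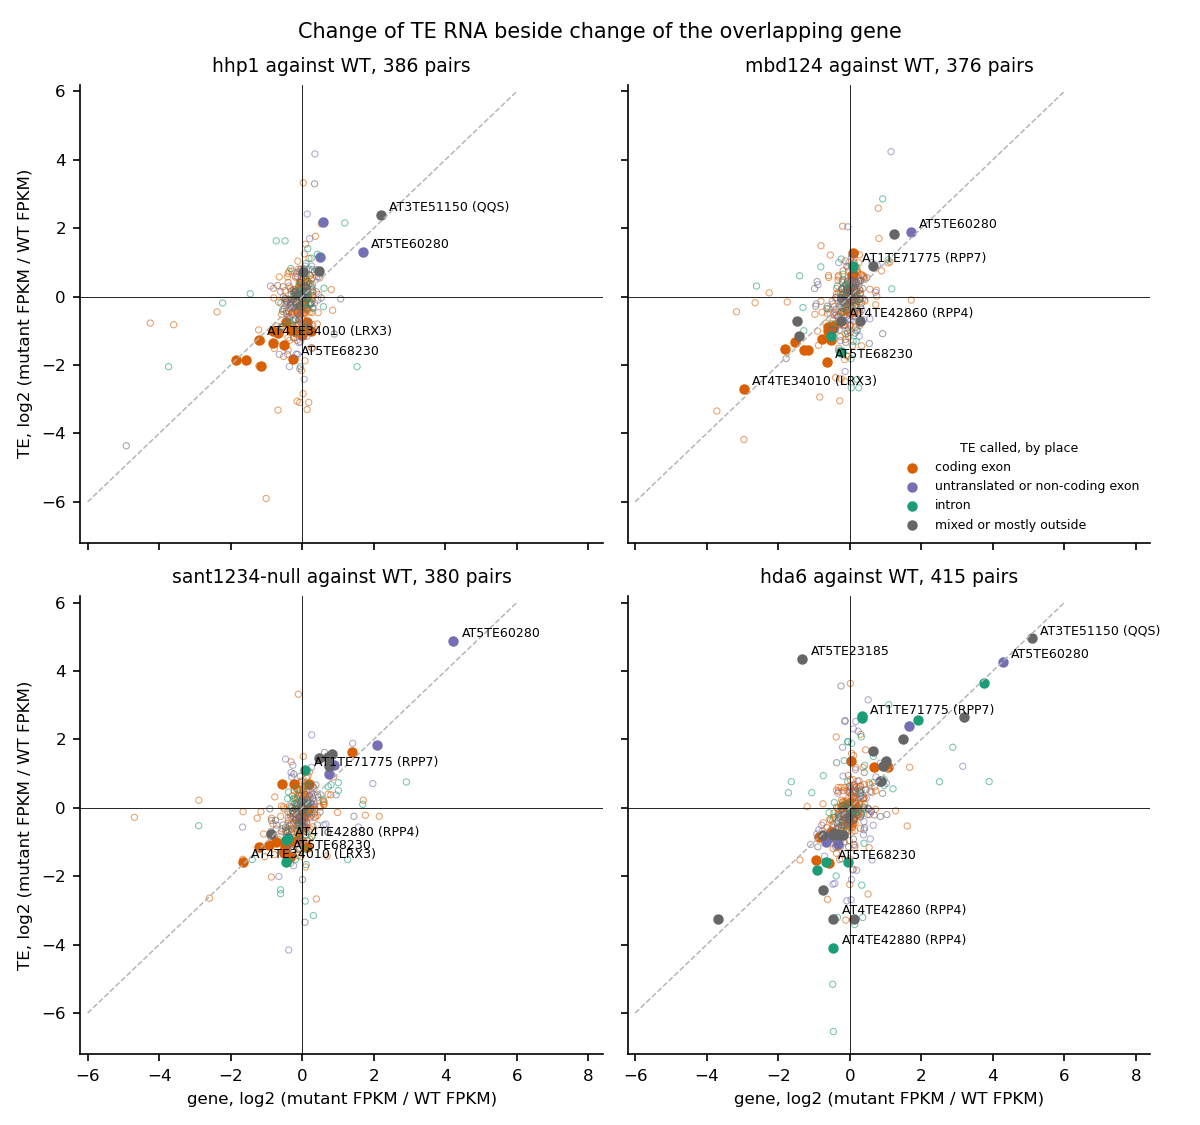
Log2 change of TE FPKM (vertical) against log2 change of the overlapping gene (horizontal) for each TE-gene pair tested in both tables with values above 0, in 4 mutants against WT; filled points are called TEs, open points uncalled ones, and colours give the place of the TE. The dashed line marks equal change; AT5TE60280 rose with its gene in each panel, while in hda6 AT1TE71775 (RPP7) lies above and AT4TE42880 (RPP4) below the line of no TE change, with the gene near 0.

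In the authors' deposited table, 18 members were listed at 0 in WT, and 16 of these were called higher in hda6. A TE listed at 0 in WT could be tested, and so become a member, only through its RNA in hda6, so this count follows from the choice of members. No fold can be given against 0, and without read counts a listed 0 does not show that a TE was silent. AT5TE39345 in AT5G28810, AT5TE66495 in AT5G45570 and AT4TE22280 in AT4G08430 were at 2477, 1332 and 711.4 FPKM in hda6, and listed at 0 in hhp1, mbd124 and sant1234-null. All 3 genes are annotated as Ulp1 proteases, a domain that plant Mutator-like TEs can carry. AT5TE50045, which contains the gene AT5G35913, was at 1010 FPKM in hda6 and at 0 in the other mutants. In the deposited hda6 gene table AT5G45570 was at 0.0136 and 21.0 FPKM without a call (q = 0.579), and AT4G08430 was listed at 0 and 1.82 and called higher.

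H3ac gave a measure that the choice of members did not use. A peak of the authors' DiffBind tables overlapped 141 members in sant1234-null and 145 in hda6. Of the 154 peaks at members in sant1234-null, 13 were higher and 31 lower at an FDR under 0.05, where 28.1% of all peaks were called, 15.2% higher and 12.9% lower. Of the 160 in hda6, 14 were higher and 52 lower, where 27.8% of all peaks were called, 5.29% higher and 22.5% lower. The median deposited log2 fold of peaks at members was -0.21 in sant1234-null and -0.39 in hda6, beside -0.02 and -0.23 for all peaks. For peaks that overlap any gene the medians were -0.03 and -0.28. The member median was thus lower than that of either set in both mutants, and the difference was not tested. Reads summed over genes were 69959151 in WT, 78316244 in sant1234-null and 68093284 in hda6.

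Called peaks were counted by place too, and the difference between places was not tested. At coding exon members, 38 of 83 peaks were lower and 2 higher in hda6, and 21 of 86 lower and 6 higher in sant1234-null, by the authors' deposited FDR. At members of mixed place, 11 of 44 were higher and 8 lower in hda6, and 6 of 36 higher and 6 lower in sant1234-null. Where the peak had to cover at least 50% of the TE, 0 peaks were higher and 29 lower in hda6, so none of the 14 higher peaks met that overlap. Of these 14, 11 lay at members of mixed place, with a median length of 2990 bp against 330 bp for coding exon members. That overlap is harder to reach at long members, and the part of length was not tested. Only 10 peaks lay at intron members in hda6 and 9 in sant1234-null, so little can be said of introns. A peak at a coding exon member also lies on the gene, and which of them it belongs to cannot be told apart.

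RNA and H3ac were called together in few TE-peak pairs. A TE with several peaks counts in several pairs, as AT4TE42860 does in hda6. Of all peaks at members, 14 of 160 were higher and 52 lower in hda6, and 13 of 154 were higher and 31 lower in sant1234-null. In hda6, 13 TE-peak pairs had a TE called higher, with the peak higher in 6, lower in 2 and uncalled in 5, in the authors' deposited tables. Of 12 pairs with a TE called lower, the peak was lower in 2, higher in 1 and uncalled in 9. In sant1234-null the 7 pairs with a higher TE had 4 higher, 1 lower and 2 uncalled peaks, and the 6 with a lower TE had 3 lower, 1 higher and 2 uncalled.

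At AT5TE23185 the H3ac log2 concentration was 3.21 in WT and 7.93 in hda6 (deposited log2 fold 3.62, FDR 0.00091). AT5TE50045 had a peak at 0 in WT and 5.52 in hda6. At AT4TE42860 beside RPP4 a peak was listed at 0 in WT and 5.37 in hda6 (FDR 0.000426), where the TE RNA was lower. A further pair of peaks there was listed at 0 and 5.98 and at 2.31 and 6.69 but had deposited log2 folds of 0.52 and 0.61 without a call, so the deposited concentrations and folds are not interchangeable. At AT2TE77015, in exon sequence of AT2G40960, a gene for an R3H protein that binds single-stranded nucleic acid, the peak fell from 6.71 to 1.19 (deposited log2 fold -5.43, FDR 5.28e-13). The TE there was listed at 0 in WT and 602.0 FPKM in hda6, and the gene rose from 7.35 to 16.9.

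In sant1234-null the peak of lowest FDR among those at members lay in AT4TE28200, at 4.90 in WT and 8.74 in the mutant (deposited log2 fold 3.79, FDR 1.71e-31). The TE, 5083 bp long with direct repeats of 373 bp, rose from 490.1 to 1023 FPKM there (q = 0.00103) and from 501.6 to 818.0 in hhp1 (q = 0.0348). In hda6 a peak at that member was at 4.58 and 7.13 (deposited log2 fold 2.14, FDR 4.98e-08), and the TE at 347.8 and 491.0 FPKM without a call. AT2TE50950, in exon sequence of AT2G27402, also had a higher TE and a higher peak in sant1234-null (deposited log2 fold 2.05).

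In sant1234-null, 4 peaks at members with the largest deposited folds were listed at 0 in WT, so the fold is not given. They lay at AT5TE66425 in AT5G45520, a leucine-rich repeat gene, with 0 in WT and 7.71 in sant1234-null, and at AT1TE13240 in LRX1, with 0 and 7.08. A further peak lay at AT3TE69475, with 0 and 6.51, and another at AT5TE09070 in AT5G07820, a calmodulin-binding protein gene, with 0 and 6.41. AT3TE69475 is 14302 bp long and reaches several genes, among them TRFL1, a gene for a telomere repeat-binding factor-like protein. Which of these genes its peak lies on is not given here. In hda6 a peak at AT5TE66425 was at 0 in WT and 5.97. The RNA of these TEs was not called in sant1234-null, and AT5TE66425 was at 787.5 and 811.9 FPKM in sant1234-null (q = 0.938). AT5TE68230 in AT5G46730 had a higher peak (1.82 to 7.88, deposited log2 fold 4.08, FDR 0.00389) where its RNA was lower.

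**Figure D5:**
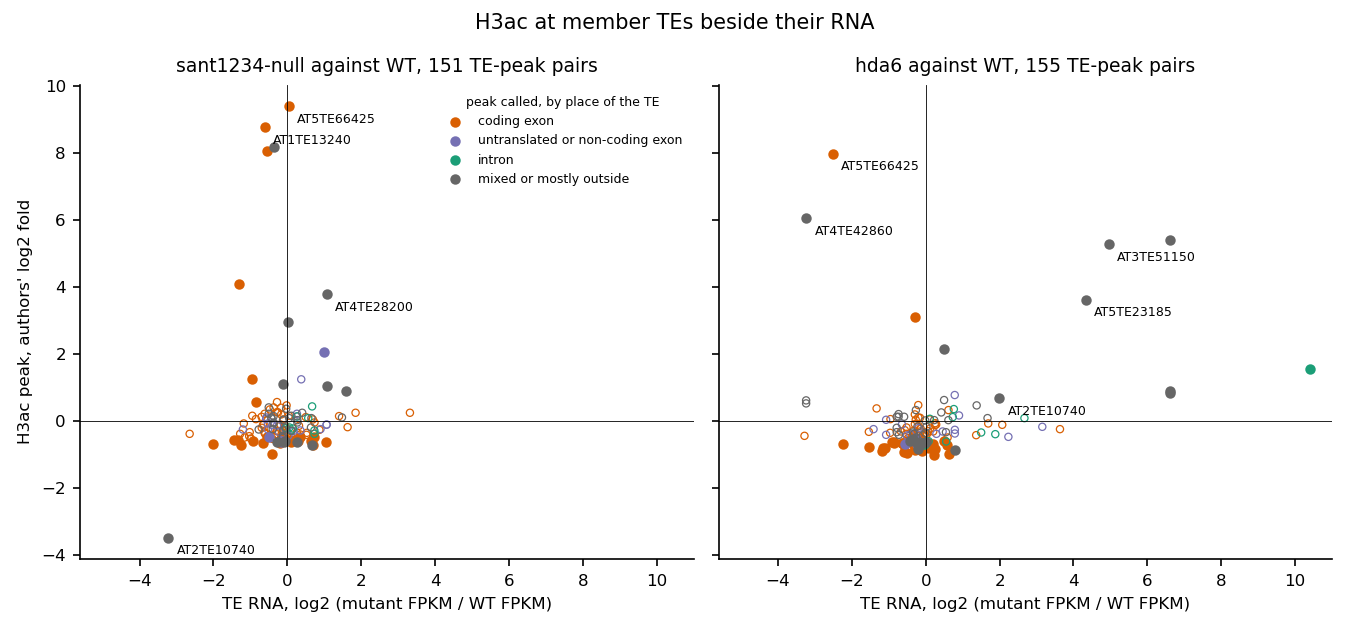
Authors' log2 fold of H3ac at each peak (vertical) against the log2 change of RNA of the member it overlaps (horizontal), for sant1234-null (151 TE-peak pairs) and hda6 (155), with called peaks filled and colours for the place of the TE. Most coding exon peaks in hda6 lie below 0, and AT3TE51150 and AT5TE23185 were high in both measures.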

How the data were processed

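RNA was measured in 15 libraries (5 genotypes, 3 each) and H3ac ChIP in 9 libraries with 9 inputs. The build was TAIR10, and the programs were, per the submitters' processing notes, MACS2 2.1.1.20160309, bedtools, Bowtie2 2.4.1, DiffBind, CASAVA, Cuffdiff, Cufflinks 2.2.1 and TopHat2 2.0.12. How strand and reads shared by a TE and a gene were treated is not given in the sources used here. The authors deposited 13 tables. In 8 of them, 4 of TEs and 4 of genes, the authors gave 1 FPKM per genotype, a log2 change, a test statistic (score), a p-value and a q-value, per the file headers. In 2 peak tables the authors gave log2 concentrations, a log2 fold and p-values with an FDR. In 3 tables the authors gave H3ac read counts and RPKM per gene, of which only summed counts are printed. The other columns, such as loci and status marks, were used as deposited by the authors. No column of per-sample values was left unused (0 columns), and no table gives single libraries, so no replicate spread or own test across samples could be had.

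Overlaps of at least 1 bp, exon shares from RefSeq TAIR10.1, dustmasker 2.17.0 low complexity, repeats within members and counts were computed in Python 3.11.15. The packages were pandas 2.3.3, numpy 2.4.6 and scipy 1.17.1. The overlap, count and error steps were checked on simulated data. The check of the errors covered their arithmetic only, not whether they hold for the deposited p-values. A call is the authors' q or FDR under 0.05. The q values were recomputed as Benjamini-Hochberg values over the tested rows of each table. A standard error is the absolute log2 change divided by the normal quantile of its two-sided p. Members and gene lists were chosen with earlier results of these data known. Named members are those with the largest rises and falls in each table, those listed at 0 in WT with the highest RNA, those called in all 4 tables, those that differ most from their gene or go against it, those at the peaks of largest fold, and those in the listed genes. Members called in 3 tables, and other members outside this rule, were named after their values were seen. Alternatives changed the thresholds, the pseudocount, the overlap and the placement.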

Additional observations from a re-analysis of the deposited data

Results flagged for a closer look

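There were 3 members called in opposite directions in sant1234-null and hda6. In each case both mutants are compared with the same WT libraries, and the difference between the mutants was not tested. AT1TE04710, across an end of the transporter gene AT1G05030, had a TE log2 change of 1.45 in sant1234-null (991.4 and 2703 FPKM) and of -2.41 in hda6 (700.0 and 131.4), in the authors' deposited TE tables. Its gene was called the same way in each, from 13.1 to 18.2 FPKM and from 12.8 to 7.59.

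AT2TE10740, which contains the non-coding RNA gene AT2G05995, had a TE log2 change of -3.23 in sant1234-null (519.4 and 55.5 FPKM) and of 2.00 in hda6 (368.9 and 1472), in the authors' deposited TE tables. An H3ac peak there went the same ways, from a log2 concentration of 6.42 to 2.74 in sant1234-null and from 6.31 to 7.16 in hda6. AT4TE10320, which reaches AT4G04415, had a TE log2 change of 1.77 in sant1234-null (364.8 and 1243 FPKM) and of -3.16 in hda6 (258.9 and 29.0), and the gene was listed at 0 in every deposited gene table.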

How the results depend on the processing

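No paired analysis was possible because the deposited tables hold 1 value per genotype and no single libraries, which also left no replicate to leave out. With q under 0.01, TE calls were 10 in hhp1 (2 higher, 8 lower), 12 in mbd124 (5 and 7) and 16 in sant1234-null (10 and 6, against 13 and 18). In hda6 they were 27 for members wholly inside a gene (13 and 14, against 33 and 21) and 32 without members listed at 0 in either genotype (17 and 15), an alternative added after seeing the data. Host gene calls with an absolute log2 change of at least 1 were 11, 19, 22 and 27 in hhp1, mbd124, sant1234-null and hda6, and 42 in hda6 for hosts of members wholly inside. The correlation of TE and gene change was 0.12, 0.087 and 0.19 in hhp1, mbd124 and sant1234-null with 0.1 added to each FPKM, which also brings in genotypes listed at 0, and 0.13, 0.12 and 0.24 with 1 added. Over TEs that overlap 1 gene it was 0.54, 0.57, 0.55 and 0.50 with hda6 last. Called H3ac peaks at members with FDR under 0.01 were 26 in sant1234-null (12 higher and 14 lower, against 13 and 31) and 32 in hda6 (11 and 21, against 14 and 52). Where the peak covers at least 50% of the TE they were 19 (4 and 15) and 29 (0 and 29). TEs and peaks called the same way were 2 in each of sant1234-null and hda6 under that overlap, and 5 in hda6 with FDR under 0.01. The other 50 summary values under alternatives moved less, 32 single calls were lost with q under 0.01, and the cause of these moves was not tested. Depth per RNA library is unknown, so no limit can be set for members listed at 0.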
